A study of Bos taurus with 18 samples.

Results

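Transcripts of 10 genes of sugar breakdown were followed in female and male bovine blastocysts: 8 enzymes of glycolysis (PFKM, ALDOA, ALDOC, TPI1, GAPDH, PGK1, PGAM1 and ENO1) and both common lactate dehydrogenases (LDHA and LDHB). The members are all probe sets for which GEO's platform annotation lists exactly 1 gene, that gene being one of the 10, with array control probe sets left out. This gave 14 probe sets of 24016 tested, 3 each for PFKM and LDHA and 1 for each other gene. All 10 genes were measured, and no filter on low values was applied.

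The embryos were produced in vitro with sex-sorted semen of 3 bulls and collected 7 days after insemination, and 60 blastocysts sharing sex and sire were pooled for each of the 18 Affymetrix arrays. There were 3 arrays of females and 3 of males for each of bulls 1, 2 and 3, so 9 female arrays stood against 9 male ones. The labels give the genotype of all groups as mixed breed and name no treatment that differs between them. Each bull is a single sire. Whether the 3 pools of a group stem from different fertilisation runs is not stated, so the p-values here speak only to the spread between pools, which may be technical.

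Glycolysis splits glucose into pyruvate in the cytosol and yields ATP and NADH without oxygen, and lactate dehydrogenase turns pyruvate into lactate and restores NAD+. Mammalian embryos take up little glucose before compaction and much more at the blastocyst stage, when a large part of it leaves as lactate. Several steps have isozymes from separate genes with their own tissue pattern: ALDOA and PFKM are the forms of muscle and many other tissues, ALDOC is known from brain, LDHA prevails in muscle and LDHB in heart. PGK1 is the only one of the 10 genes on the X chromosome.

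The values are log2 expression values, so that a difference of 1 is a doubling. Probe sets differ in how brightly they bind, so levels are compared between arrays and never between genes. Array medians ran from 5.33 to 5.49. The blastocyst label was checked against markers: KRT18, a keratin of the trophectoderm, averaged 14.04 ± 0.06 in females and 14.04 ± 0.07 in males, and POU5F1, a pluripotency factor of the inner cell mass, 11.93 ± 0.06 and 11.93 ± 0.08 (SD, n = 9 arrays each). These 2 do not show that the lineages were alike between the sexes. Of 9 trophectoderm markers 2 were higher and 3 lower in females, and of 5 inner cell mass markers 2 were higher. Of all genes 11.5% were higher and 9.31% lower. XIST, the RNA of the inactive X, lay between 8.87 and 9.57 on female arrays and between 5.93 and 7.28 on male arrays, so every array matched its label. On 4 arrays (female bull 1 replicate 3, male bull 1 replicate 2, male bull 2 replicate 1 and male bull 3 replicate 3) the probe sets spread more widely around their medians, with an interquartile range above 0.25. In bulk RNA, fewer cells of a type and less RNA per cell cannot be told apart.

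By the brightest probe set of each gene, females had more transcript of 4 of the 10 genes, ALDOC, PFKM, PGK1 and LDHA, and no member was higher in males. The other probe sets of PFKM and LDHA did not pass. ALDOC stood apart with a 1.81-fold difference and no overlap between the sexes, while PFKM, PGK1 and LDHA differed by 1.37, 1.24 and 1.23-fold with overlapping arrays. ALDOA, TPI1, GAPDH, PGAM1, ENO1 and LDHB did not pass. By limma, with p-values adjusted after Benjamini and Hochberg over all probe sets, 4 of 14 glycolytic probe sets passed, all higher in females. Of all probe sets, 15.6% passed in either direction, 8.12% higher in females and 7.47% higher in males. By the brightest probe set of each gene this was 4 of 10 genes, against 20.8% of 9155 genes in either direction, 11.5% higher in females and 9.31% higher in males. Leaving out the X-linked PGK1, 3 of 9 autosomal genes passed. Of 12827 autosomal probe sets, 989 were higher in females and 1078 higher in males. The median sex difference was 0.09 log2 over the 14 probe sets and -0.03 log2 over all probe sets. Leaving out the 4 arrays of wide spread, 3 glycolytic probe sets passed, and with the 5′ to 3′ signal of control transcripts as a covariate 4 passed. That signal had nearly the same mean in both sexes, so it could hardly move a sex difference.

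**Figure D1:**
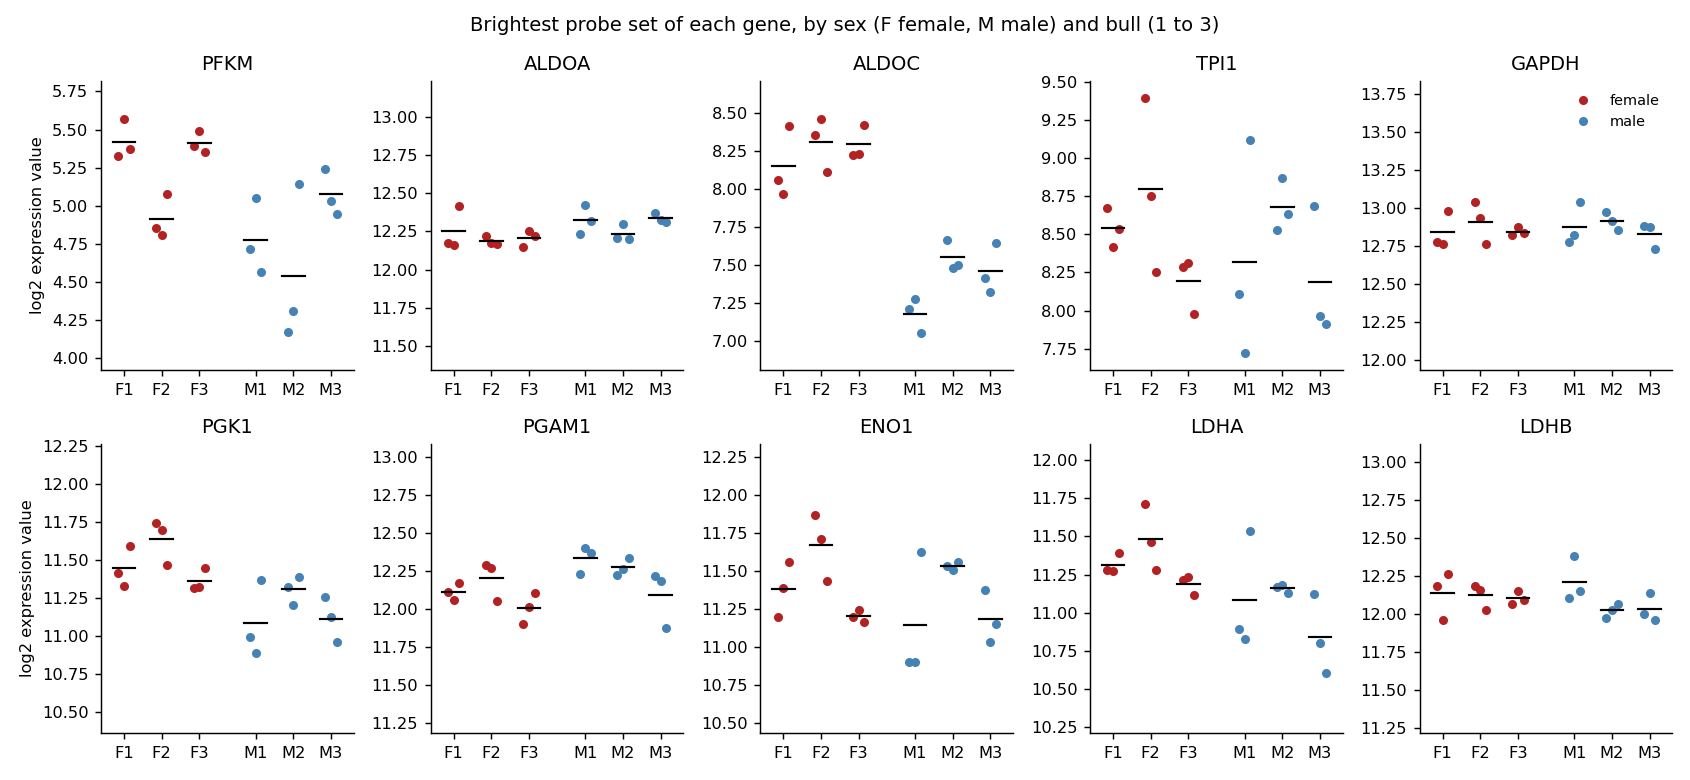
Log2 expression value (y axis, the same span in every panel) of the brightest probe set of each gene on each array, females (F, red) left and males (M, blue) right, by bull 1 to 3 (x axis); points are arrays and bars are means of 3 arrays. ALDOC separates the sexes completely, from 7.97 to 8.46 in females and from 7.05 to 7.66 in males, while GAPDH stays between 12.73 and 13.04 on all arrays.

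PFKM is the muscle-type subunit of phosphofructokinase, the enzyme that commits sugar to glycolysis. Its gene (NCBI gene 506544) lies on chromosome 5. The brightest PFKM probe set read 5.32, 5.57 and 5.37 in females of bull 1, against 4.71, 5.05 and 4.56 in males of bull 1. In bull 2 it read 4.85, 4.81 and 5.08 in females and 4.17, 4.31 and 5.14 in males. In bull 3 it read 5.39, 5.49 and 5.35 in females and 5.24, 5.03 and 4.95 in males. Females lay above males without overlap in bulls 1 and 3, and in bull 2 a single male array, replicate 3, exceeded all females. With 3 arrays against 3, separation within a bull comes easily by chance, for this and the other members. Its share over all probe sets was not counted.

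The difference was 0.45 ± 0.11 log2 (SE, 95% interval 0.23 to 0.68, limma adjusted p = 0.00634). It no longer passed without bull 1 (0.36 log2, adjusted p = 0.126). The brightest PFKM probe set was itself dim, its mean of 5.02 lying below all array medians (5.33 to 5.49). The other PFKM probe sets, dimmer still at means of 3.80 and 3.73, did not show the difference. They differed by -0.07 (95% interval -0.29 to 0.15) and 0.04 log2 (-0.13 to 0.21), and the mean over the 3 probe sets by 0.14 log2 (adjusted p = 0.177). Set against each of them within an array, the brightest probe set gained 0.52 log2 (exact permutation of sex within bulls, two-sided, adjusted p = 0.0173) and 0.41 log2 (exact permutation, adjusted p = 0.0323) in females. Neither gap passed without bull 2 (exact permutation, adjusted p = 0.05) or without bull 3 (0.143). The second also failed without bull 1 (0.138), without the 4 arrays of wide spread (0.0925) and in 9 of 18 fits without 1 array.

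Of the aldolases, which split fructose bisphosphate into 3-carbon sugars, ALDOC was higher in females and ALDOA did not pass. ALDOC (NCBI gene 504584, chromosome 19) read 8.06, 7.97 and 8.41 in females of bull 1, against 7.21, 7.28 and 7.05 in males. In bull 2 it read 8.35, 8.46 and 8.11 in females and 7.66, 7.48 and 7.50 in males. In bull 3 it read 8.22, 8.23 and 8.42 in females and 7.41, 7.32 and 7.65 in males. Every female array was above every male array, which held for 1.99% of all probe sets.

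ALDOC averaged 8.25 ± 0.18 in females and 7.40 ± 0.20 in males (SD, n = 9), a difference of 0.85 ± 0.07 log2 (SE, 95% interval 0.70 to 1.01, limma adjusted p = 2e-07). It was the only member called within single bulls, with 0.97, 0.76 and 0.83 log2 in bulls 1, 2 and 3 (limma adjusted p = 0.000237, 0.0016 and 0.000773), where 4.2%, 3.13% and 4.18% of all probe sets passed. With array weights 2 of 14 glycolytic probe sets passed in each bull, where 1740, 1799 and 3144 of all 24016 probe sets did. In bull 1, 2 passed without the 4 arrays of wide spread and without male bull 1 replicate 2 or 3 or male bull 2 replicate 1 or 3, and in bull 2, 2 passed without male bull 2 replicate 3. Of all probe sets, 625 to 1240 passed in bull 1 and 422 to 956 in bull 2 without 1 array. The number for bull 1 without the 4 arrays is not given here. The order of the ALDOC group means was females of bulls 2, 3 and 1 (8.31, 8.29 and 8.15), then males of bulls 2, 3 and 1 (7.55, 7.46 and 7.18). Neighbours in this order overlapped, except females of bull 1 with males of bull 2 and males of bull 3 with males of bull 1, and the averages of the bulls over both sexes did not pass against each other. ALDOA, from 12.15 to 12.41 in females and from 12.20 to 12.43 in males, differed by -0.08 log2 (95% interval -0.19 to 0.02, adjusted p = 0.33).

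The log2 value of ALDOC minus that of ALDOA was -3.97 ± 0.15 in females and -4.90 ± 0.24 in males (SD, n = 9). The gap between the isozymes thus differed by 0.94 log2 (95% interval 0.79 to 1.08), with 1.04, 0.81 and 0.96 in bulls 1, 2 and 3. ALDOC alone separated the sexes in every bull and ALDOA differed by -0.08 log2, so this comparison largely restates the ALDOC result. An exact permutation of sex within bulls gave p = 0.00025, the smallest the design allows, and an adjusted p of 0.0015 over 6 such comparisons. The 6, chosen after the sex differences were known, were this pair, LDHA and LDHB, and the probe sets of PFKM and of LDHA.

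ALDOC in adults is a brain enzyme and PFKM a muscle one, so markers of both tissues were read beside them. Of 5 brain markers none was higher in females and SNAP25 was lower, with a mean level over the list from 5.56 to 5.86 in females and from 5.57 to 5.94 in males. Of 7 skeletal muscle markers only CKM, the muscle creatine kinase, was higher in females, at 6.36 ± 0.18 against 4.94 ± 0.39 in males (SD, n = 9), and the list ran from 4.89 to 5.19 in females and from 4.58 to 4.97 in males. Taken as the mean over the probe sets of a gene, CKM differed by 0.67 log2 in place of 1.42 and 3 of the muscle markers were higher in females, and with array weights, an intensity trend, 1 probe set per gene or without bull 1 there were 2. There were also 2 without female bull 1 replicate 3, male bull 1 replicate 1, male bull 2 replicate 3 or male bull 3 replicate 2. The part of such cells in the differences was not tested.

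**Figure D2:**
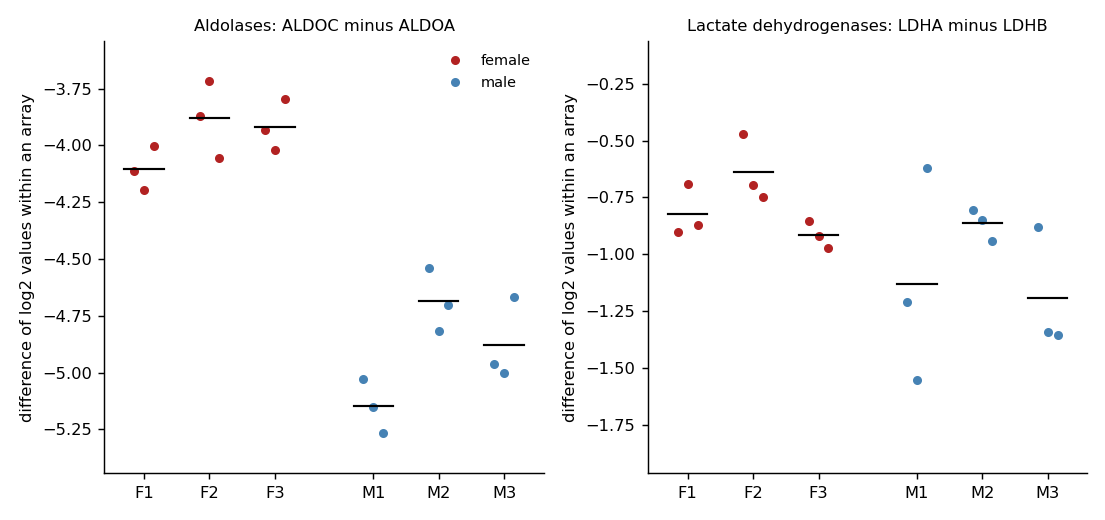
Difference of log2 values within an array (y axis) for ALDOC minus ALDOA (left) and for the brightest LDHA probe set minus LDHB (right), females (red) left of males (blue), by bull 1 to 3 (x axis); points are arrays and bars are means of 3. The aldolase difference separates the sexes, from -4.20 to -3.72 in females and from -5.27 to -4.54 in males, and the lactate dehydrogenase difference overlaps.

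TPI1, GAPDH, PGAM1 and ENO1 did not pass the test for sex. TPI1, triosephosphate isomerase, spread the most among members, from 7.98 to 9.40 in females and from 7.72 to 9.12 in males, and its sex difference of 0.12 log2 had an interval from -0.24 to 0.47. GAPDH, which oxidises glyceraldehyde phosphate and often serves as a reference gene, was steady at 12.86 ± 0.10 in females and 12.87 ± 0.09 in males (SD, n = 9), with a difference of -0.01 log2 (95% interval -0.13 to 0.11). PGAM1, phosphoglycerate mutase, differed by -0.12 log2 (95% interval -0.25 to 0.00, adjusted p = 0.202), and passed with arrays weighted by their quality (-0.15 log2, adjusted p = 0.0347). ENO1, enolase, differed by 0.13 log2 (95% interval -0.06 to 0.33). These intervals do not show that the sexes were alike, and that of TPI1 reaches a 1.39-fold difference.

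PGK1, phosphoglycerate kinase, makes the first ATP that glycolysis returns, and its gene (NCBI gene 507476) lies on the X chromosome. It read 11.42, 11.33 and 11.59 in females of bull 1, against 11.00, 10.89 and 11.37 in males. In bull 2 it read 11.74, 11.70 and 11.47 in females and 11.32, 11.21 and 11.39 in males. In bull 3 it read 11.32, 11.32 and 11.45 in females and 11.26, 11.12 and 10.96 in males. Females were above males without overlap in bulls 2 and 3, and in bull 1 a male array, replicate 3, exceeded a female one. The share of all probe sets that separate within a bull was not counted.

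The difference was 0.31 ± 0.07 log2 (SE, 95% interval 0.16 to 0.46, limma adjusted p = 0.00468), or 0.36, 0.33 and 0.25 log2 in bulls 1, 2 and 3. It missed the threshold without bull 2 (0.31 log2, adjusted p = 0.0617) and was 0.23 log2 without the 4 arrays of wide spread (adjusted p = 0.0347). Among 297 X-linked genes, each by its brightest probe set, the median difference was 0.44 log2 with quartiles of 0.14 and 0.70, and 36.7% had a smaller difference than PGK1. PGK1 was therefore on the lower side of the middle of all 297 X-linked genes, 208 of which were higher in females and 1 in males. No filter on low values was applied, so dim genes with differences near 0 add to the share below PGK1. Among the dimmest, GRIA3, TNMD and LPAR4 differed by -0.06, 0.02 and -0.05 log2. The place of PGK1 among brighter X-linked genes was not counted.

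**Figure D3:**
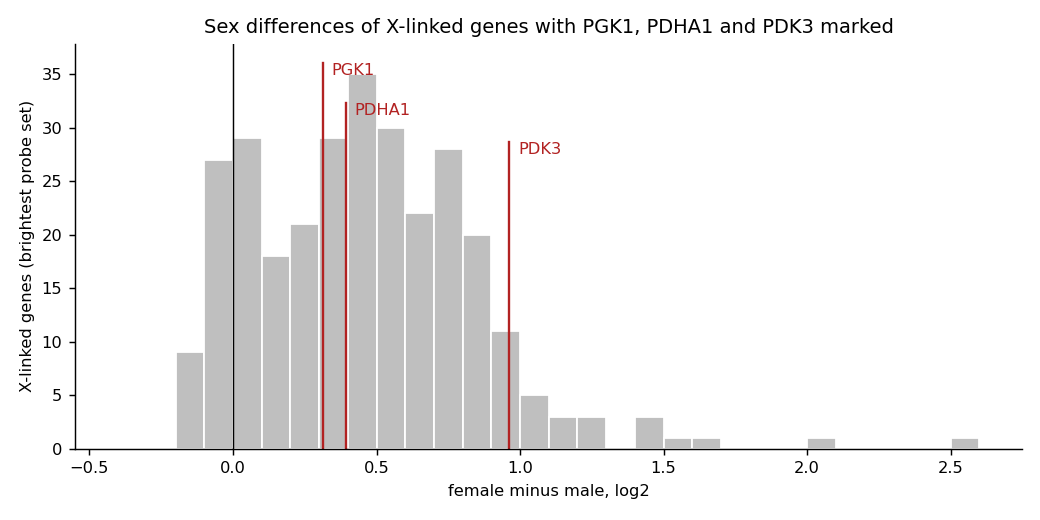
Histogram of the female minus male log2 difference (x axis) of 297 X-linked genes (y axis, number of genes per bin of 0.1 log2), with vertical lines at PGK1 (0.31), PDHA1 (0.39) and PDK3 (0.96). PGK1 and PDHA1 lie below the median of 0.44 and PDK3 above the upper quartile of 0.70.

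Of the lactate dehydrogenases, LDHA was higher in females by its brightest probe set and LDHB did not pass. The brightest LDHA probe set (NCBI gene 281274, chromosome 29) read 11.28, 11.27 and 11.39 in females of bull 1, against 10.89, 10.83 and 11.53 in males. In bull 2 it read 11.71, 11.47 and 11.28 in females and 11.17, 11.18 and 11.13 in males. In bull 3 it read 11.22, 11.23 and 11.12 in females and 11.12, 10.80 and 10.61 in males. Only bull 2 had no overlap, and 1 male array of bull 1 was higher than every female array of that bull.

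The difference was 0.30 ± 0.09 log2 (SE, 95% interval 0.11 to 0.49, limma adjusted p = 0.0317), the least firm of the 4. It did not pass without bull 2 (adjusted p = 0.183), without bull 3 (0.164), without the 4 arrays of wide spread (0.21 log2, adjusted p = 0.177) or without moderation (0.0696). Leaving out 1 array ended the call in 10 of 18 fits (adjusted p from 0.0506 to 0.0743, 0.26 to 0.30 log2). These were the fits without female bull 1 replicate 3, bull 2 replicates 1 and 2 and bull 3 replicates 1 and 2, and without male bull 1 replicates 1 and 2, bull 2 replicate 3 and bull 3 replicates 2 and 3. The other LDHA probe sets differed by 0.07 (95% interval -0.13 to 0.27) and 0.15 log2 (0.02 to 0.27, adjusted p = 0.109), and their gaps to the brightest did not pass (exact permutation, adjusted p = 0.0774 and 0.246).

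LDHB ranged from 11.96 to 12.27 in females and from 11.96 to 12.38 in males and differed by 0.03 log2 (95% interval -0.09 to 0.15). LDHA minus LDHB was -0.79 ± 0.16 in females and -1.06 ± 0.31 in males (SD, n = 9), a difference of 0.27 log2 (95% interval 0.03 to 0.52, exact permutation, adjusted p = 0.0323). That call ended without bull 2, without bull 3, without the 4 arrays of wide spread (0.19 log2) and in 9 of 18 fits without 1 array, with exact permutation p-values adjusted over the 6 comparisons of up to 0.143.

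**Figure D4:**
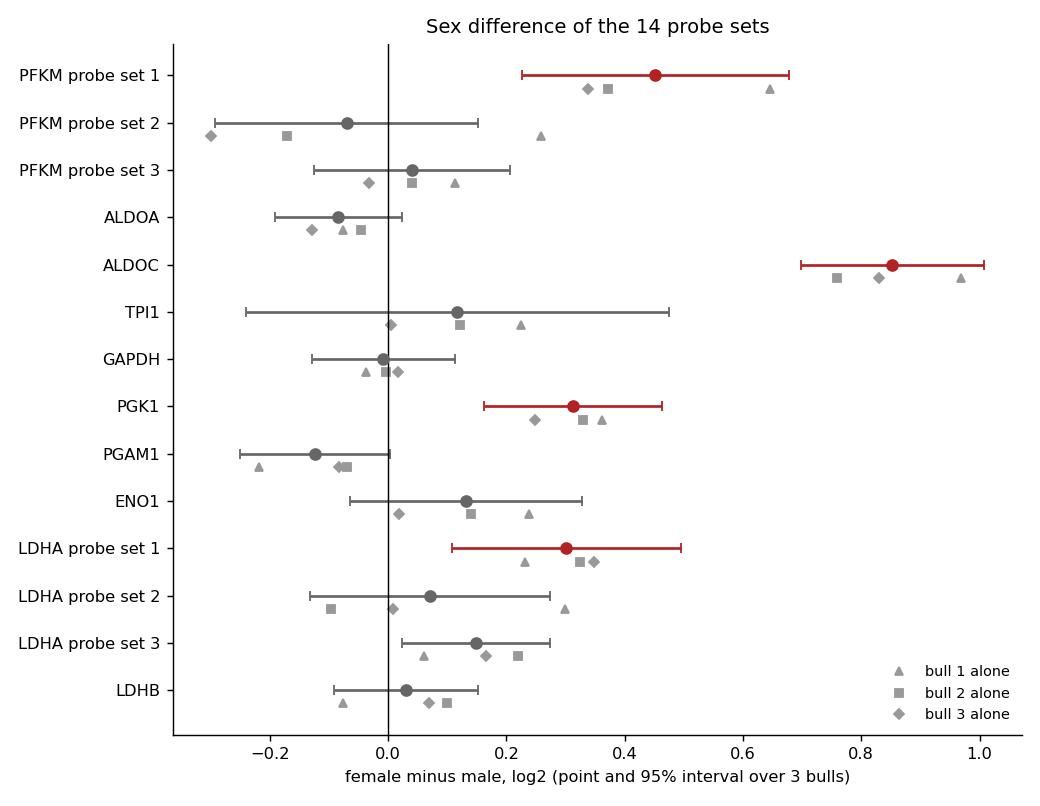
Female minus male log2 difference (x axis) of the 14 probe sets (y axis, in pathway order); large points with 95% intervals are averages over 3 bulls, red where limma's adjusted p was under 0.05 and grey otherwise, and small grey symbols are the single bulls. ALDOC lies alone near 0.85, PFKM probe set 1, PGK1 and LDHA probe set 1 between 0.30 and 0.45, and the other probe sets between -0.12 and 0.15.

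No member's sex difference was called as differing between bulls. Testing the interaction of sex and bull with limma gave 0 calls among all 24016 probe sets, while 2.73% had an unadjusted p under 0.05. Among the members the smallest unadjusted p was 0.107, for the second PFKM probe set. That probe set had females above males in bull 1 (0.26 log2) and below in bulls 2 and 3 (-0.17 and -0.30 log2).

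Between bulls, 1 of 14 glycolytic probe sets passed in 1 of 3 comparisons. The brightest PFKM probe set averaged 5.24 ± 0.21 in bull 3 and 4.73 ± 0.40 in bull 2 (SD, n = 6 arrays each), a 1.43-fold difference (0.52 ± 0.13 log2, SE, limma adjusted p = 0.0345), where 3.74% of all probe sets passed. The call ended without the 4 arrays of wide spread (adjusted p = 0.0722) and in 7 of 18 fits without 1 array (adjusted p from 0.069 to 0.0974). These left out female bull 2 replicates 1 and 2, female bull 3 replicates 1 and 2, male bull 2 replicates 1 and 2 or male bull 3 replicate 1. The other PFKM probe sets did not show the difference, at 0.17 and -0.05 log2 (limma adjusted p = 0.539 and 0.854). ENO1 stood at 11.19 ± 0.12 in bull 3 and 11.60 ± 0.16 in bull 2, a difference of -0.41 log2 that missed the threshold (limma adjusted p = 0.0541) and passed with array weights (adjusted p = 0.0242) and without female bull 2 replicate 3 (0.0409), male bull 1 replicate 2 (0.0391) or 3 (0.0134) or male bull 3 replicate 1 (0.0421). TPI1, at 8.19 ± 0.30 in bull 3 and 8.74 ± 0.39 in bull 2, differed by -0.55 log2 (adjusted p = 0.156). None of the members passed for bull 2 against bull 1 or bull 3 against bull 1, where 1.52% and 3.53% of all probe sets did. For bull 2 against bull 1, 2 passed with array weights and 1 without male bull 1 replicate 3 or male bull 2 replicate 3, and for bull 3 against bull 1, 1 passed without male bull 1 replicate 2. Of all 24016 probe sets, 1161 passed for bull 2 against bull 1 with array weights and 133 to 607 without 1 array. For bull 3 against bull 1, 271 to 1594 passed without 1 array. A difference between bulls cannot be told apart from any production or hybridisation batch that coincides with the bull.

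Apart from sex and bull, 5 members varied most alike from pool to pool. They were picked from these same correlations, so their place at the top is no test. After each group's mean was taken off, the 10 pairs among TPI1, GAPDH, PGK1, ENO1 and LDHA had the 10 highest correlations of all 45 pairs, from r = 0.706 to 0.940 over 18 arrays, and the highest of the other 35 pairs was 0.676. After adjustment over the 45 pairs, 2 passed. TPI1 and LDHA had r = 0.940 (exact permutation within groups, p = 0.000836, adjusted p = 0.0241) and rho = 0.903 (exact p = 0.00105), and r = 0.891 without the 2 arrays farthest in TPI1. GAPDH and LDHA had r = 0.826 (exact permutation, p = 0.00107, adjusted p = 0.0241) and rho = 0.810 (exact p = 0.00165), and r = 0.798 without 2 arrays. Other pairs of the 5 fell lower without 2 arrays, TPI1 to 0.497 with GAPDH and to 0.580 with PGK1. Outside the 5, PGK1 and PGAM1 had r = 0.863 without the 2 arrays farthest in PGK1. Leaving out the 4 arrays of wide spread, the 10 pairs ran from 0.712 to 0.961 and no longer stood apart, since PGAM1 reached 0.867 with PGK1 and 0.727 with GAPDH. Female bull 2 replicate 1, at 9.40 for TPI1 and 11.71 for LDHA, and male bull 1 replicate 3, at 9.12 and 11.53, were high in both. ALDOC, at r from -0.17 to 0.24 with the 5, was not among them. The 5 transcripts share each array's RNA pool, amplification and normalization, and the part of these was not tested.

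PGAM1 and LDHB correlated with a measure of the state of the RNA. An index was taken as the 5′ minus 3′ log2 signal, averaged over 3 control transcripts, a measure of how complete the labelled RNA was. It ran from -0.79 to 0.05 on female arrays and from -1.27 to 0.45 on male arrays, with means of -0.35 ± 0.25 and -0.35 ± 0.46 (SD, n = 9). One of the control transcripts is GAPDH itself, through control probe sets that are no members. The deviation of PGAM1 from its group mean correlated with that of the index at r = 0.863 (exact permutation within groups, p = 0.000107, adjusted p = 0.0015 over 14 probe sets) and rho = 0.874 (exact p = 0.000129), with r = 0.856 without the 2 farthest arrays. LDHB had r = 0.770 (exact permutation, p = 0.00433, adjusted p = 0.0303), rho = 0.804 (exact p = 0.00285) and r = 0.722 without 2 arrays. Without the 4 arrays of wide spread r was 0.902 for PGAM1 and 0.543 for LDHB. ALDOA had r = 0.657 over all arrays (exact permutation, adjusted p = 0.0627) and 0.427 without these 4. Over all arrays r was 0.45 for GAPDH, 0.35 for PGK1, 0.21 for LDHA, 0.19 for ALDOC, 0.10 for ENO1 and 0.02 for TPI1. Without the 4 arrays it was higher in each of these 6, at 0.57, 0.81, 0.44, 0.46, 0.45 and 0.39 in the same order, so that PGK1 and GAPDH exceeded LDHB. The sex differences of PFKM, PGK1 and LDHA were 0.45, 0.31 and 0.30 log2 with the index as a covariate, as without it. The index had nearly the same mean in both sexes, so as a covariate it could hardly move these differences. The part of the state of the RNA in them was not tested.

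**Figure D5:**
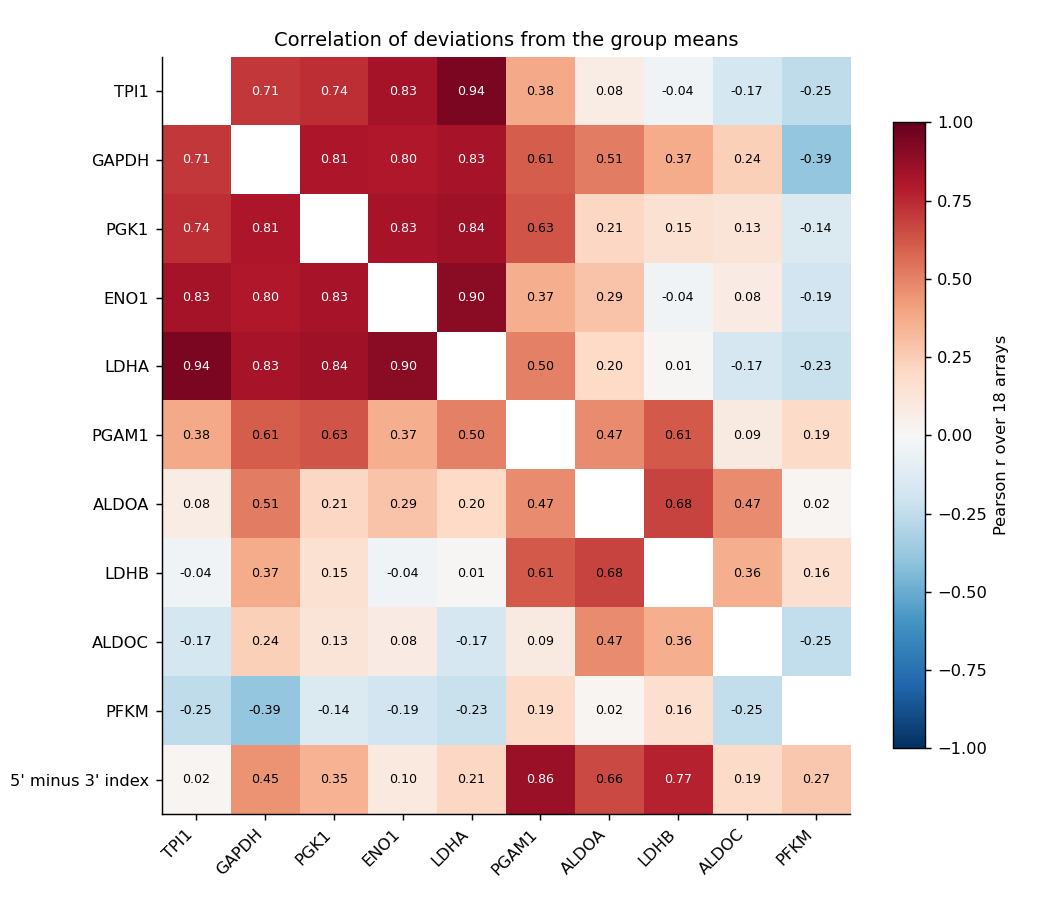
Pearson correlation (colour and number) over 18 arrays of the deviations from the group means, between the brightest probe sets of the 10 genes (rows and columns) and, in the bottom row, with the 5′ minus 3′ index. The pairs among TPI1, GAPDH, PGK1, ENO1 and LDHA, placed together for their high values, run from 0.71 to 0.94, and the index is highest with PGAM1 (0.86) and LDHB (0.77).

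The genes most like each member were taken as the 3 with the highest Pearson correlation of log2 values over 18 arrays among 9018 named genes, as a description. For ALDOC these were DKK3, ICAM1 and TNNI3 (r = 0.967, 0.960 and 0.956), which were themselves higher in females by 1.13, 0.78 and 0.96 log2. For PGK1 they were FOS, HYAL1 and AHSA1 (0.896, 0.873 and 0.867). For GAPDH the nearest gene was PKM, the pyruvate kinase that ends glycolysis (0.859), and PFKL, the liver-type phosphofructokinase, was among the 3 nearest of both TPI1 (0.820) and ENO1 (0.811). Sex, bull and array quality enter these values alike.

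Among 19 other genes of glycolysis and its regulation, females had more of 2 and less of 3, against 11.5% and 9.31% of all genes, with a median of -0.03 log2. ENO3, the muscle enolase, averaged 6.63 ± 0.22 in females and 7.24 ± 0.18 in males (SD, n = 9, -0.61 log2, limma adjusted p = 6.38e-05), with every female array below every male one. The share of all probe sets separated in that direction was not counted. ENO2, the neuronal enolase, was dim at 4.28 ± 0.24 in females and 3.71 ± 0.23 in males (0.57 log2, adjusted p = 0.000545). Enolase transcripts thus ran in opposite directions between genes, with ENO1 in between. PGAM2, the muscle phosphoglycerate mutase, rose by 0.56 log2 in females and lost its call without bull 1 (0.43 log2, adjusted p = 0.054). Over the brighter 50% of probe sets alone, which hold neither ENO2 nor PGAM2, 0 genes of this list were higher in females. HKDC1, a hexokinase relative, and PGAM5, a mitochondrial phosphatase of the mutase family, were lower in females by 0.49 and 0.26 log2, the second not passing without bull 2 (adjusted p = 0.0561).

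Of 21 genes that handle pyruvate, 4 were higher and 3 lower in females, against 11.5% and 9.31% of all genes. PDK3, an X-linked kinase that switches pyruvate dehydrogenase off, averaged 8.56 ± 0.09 in females and 7.60 ± 0.15 in males (SD, n = 9, 1.95-fold, limma adjusted p = 4.54e-09), and PDHA1, the X-linked catalytic subunit of that enzyme, 11.69 ± 0.04 and 11.30 ± 0.09. DLAT, its acetyltransferase subunit, was lower in females by 0.28 log2, GOT2, the mitochondrial aspartate aminotransferase, by 0.21 and PCK2 by 0.73, while FBP2, a muscle fructose bisphosphatase, was higher by 0.33. Without 1 of the bulls DLAT, GOT2 and FBP2 lost their calls (adjusted p = 0.0713, 0.134 and 0.178). FBP2 was not among the brighter 50% of probe sets. None of 6 pentose phosphate genes passed. Of 10 transporters of glucose and lactate, SLC2A8 (-0.35 log2) and SLC2A5 (-0.17 log2) were lower in females and none was higher. SLC2A5 lost its call without each bull (adjusted p from 0.0698 to 0.413) and in 9 of 18 fits without 1 array (up to 0.0674).

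Among 16 genes of the response to low oxygen, which includes a known transcriptional regulator of glycolytic genes, 8 were higher and 2 lower in females, with a median of 0.25 log2 against -0.01 over all genes, of which 11.5% were higher and 9.31% lower. HIF1A, the oxygen-regulated subunit of that regulator, averaged 9.74 ± 0.06 in females and 9.41 ± 0.10 in males (SD, n = 9, 0.34 log2, limma adjusted p = 0.000238), with no array in common. Of all probe sets, 1.99% had every female array above every male one. ARNT, the partner subunit of HIF1A, was higher by 0.34 log2 (adjusted p = 0.000336), and NDRG1 and BNIP3L of the same list by 0.36 and 0.27. P4HA2, a collagen prolyl hydroxylase, and EGLN1, which marks HIF1A for breakdown, were lower in females by 0.37 and 0.23 log2. Their relatives P4HA1 and EGLN3 went the other way, each higher in females by 0.43 log2 (limma adjusted p = 0.0109 and 0.0384). P4HA1 lost its call without bull 2 (adjusted p = 0.137). EGLN3 lost its call without bull 1 (0.391), without bull 2 (0.0578), without moderation (0.102), with a replicate block (0.0547) and in 13 of 18 fits without 1 array. Without bull 3 the calls of NDRG1, BNIP3L, P4HA2 and EGLN1 ended (limma adjusted p from 0.0548 to 0.155), and without bull 2 those of NDRG1 and BNIP3L (0.0677 and 0.104). The mean level of the list lay between 8.62 and 8.77 in females and between 8.48 and 8.62 in males. The 8 became 9 without the 4 arrays of wide spread, and 6, 2 and 4 without bulls 1, 2 and 3. The part of this response in the differences of the glycolytic genes was not tested.

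Some markers of other cells differed between the sexes, as did 20.8% of all genes (11.5% higher and 9.31% lower in females). Of 12 cumulus and granulosa markers 4 were higher and 1 was lower in females (mean level from 5.28 to 6.05 in females and from 5.09 to 5.93 in males). Of 5 blood markers 2 were higher and 1 lower (4.68 to 5.23 in females, 4.69 to 5.09 in males), of 6 oocyte markers 1 was higher (4.99 to 5.57 and 4.96 to 5.33), and of 5 sperm markers 2 were higher and 2 lower (6.32 to 6.73 and 5.99 to 6.4). Among embryo lineages, 2 of 9 trophectoderm markers were higher and 3 lower (8.36 to 8.85 and 8.35 to 8.86), 2 of 5 of the inner cell mass were higher (9.45 to 9.70 and 9.24 to 9.50), and 1 of 4 of the primitive endoderm was higher and 1 lower (6.93 to 7.23 and 6.76 to 7.05). Their part in the differences of the glycolytic genes was not tested, and neither was binding of related sequences, such as processed pseudogenes, by the probe sets.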

How the data were processed

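The authors deposited 1 log2 value per probe set and array. Per the submitters' processing notes, RMA and Partek 6.4 were used, without the role of each. That the scale is log2 follows from the range of the values (1.89 to 14.15). Scan dates were not used here. RMA draws array distributions together and compresses large differences of dim transcripts.

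A mean for each of the 6 groups was fitted to 24016 probe sets (112 controls left out) with limma 3.58.1 in R 4.3.3 (lmFit, eBayes, 12 residual degrees of freedom), and p-values were adjusted by Benjamini-Hochberg over all probe sets, with a threshold of 0.05. The fit was tested on simulated data. A RefSeq table (ARS-UCD2.0) gave current names and chromosomes by gene number, where 13263 of 13292 probe sets with 1 gene matched. Lists use the brightest probe set per gene, and up to 6 called genes per list were named by smallest p. P4HA1 and EGLN3 were named besides, as relatives of genes named by that rule. Differences within an array and correlations were tested by exact permutation within bulls or groups, and the intervals of the former assume equal spread in all groups. Members and lists were chosen with earlier results of these data known, and these within-array tests and correlations were chosen after seeing the data. Sequences were not used here. Figures were drawn with matplotlib. Alternatives were an additive model, no moderation, an intensity trend, array weights, repeated quantile normalization, brighter probe sets only, 1 value per gene, a replicate block, bull as the replicate, and leaving out bulls or single arrays.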

Additional observations from a re-analysis of the deposited data

Results flagged for a closer look

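Single arrays lay far from the others of their sex or bull in 7 of 70 checks of members, where the gap to the nearest array, relative to the group's range, exceeded Dixon's 95% limit. Chance flags about 1 in 20 groups. All 7 fell on 3 of the 4 arrays of wide spread. Female bull 1 replicate 3 was the highest female for the second PFKM probe set (4.56, next 3.91), for the third PFKM probe set (4.27, next 3.79, and also the highest of bull 1) and for ALDOA (12.41, next 12.25). Male bull 1 replicate 2 was the highest male for LDHB (12.38, next 12.15) and the lowest of bull 1 for the second LDHA probe set (8.11, next 8.96). Male bull 3 replicate 3 was the lowest male for PGAM1 (11.87, next 12.18). None of the 4 probe sets called for sex was among them.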

How the results depend on the processing

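ALDOC kept its call under every alternative run (0.79 to 0.90 log2, and 0.81 to 0.89 log2 without 1 array). The count of 4 glycolytic probe sets became 2 without bull 2 and was 3 to 4 without 1 array. Over all probe sets, 3743 calls for sex became 2222 with 1 probe set per gene and 2096 with the mean per gene, where fewer features were tested, 2044 without bull 2 and 2182 without bull 3 (3175 to 3983 without 1 array). The 1950 higher in females became 1173, 1093 and, without bull 2, 1145 (1731 to 2225 without 1 array). Within bulls 1, 2 and 3 array weights gave 1740, 1799 and 3144 calls, the arrays of 1 bull alone 290 in bull 1 and 596 in bull 3, leaving out the 4 arrays of wide spread 1130 in bull 2 and 1545 in bull 3, and leaving out 1 array 625 to 1240, 422 to 956 and 465 to 1317. Bull 2 against bull 1 gave 569 calls over the brighter probe sets, 1161 with array weights, 228 without the wide arrays and 133 to 607 without 1 array. Bull 3 against bull 1 gave 2045, 466 and 271 to 1594 with weights, without the wide arrays and without 1 array, and bull 3 against bull 2 gave 2693 with weights and 384 to 1337 without 1 array. LDHA minus LDHB lost its call without bull 2 (0.29 log2), bull 3 (0.27 log2) and the wide arrays (0.19 log2), and ran from 0.20 to 0.36 log2 without 1 array.

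Signs turned only in probe sets that did not pass for sex: the third PFKM probe set with array weights (-0.0039 log2) and without the wide arrays (-0.016, and -0.025 to 0.082 without 1 array), the second LDHA probe set with weights (-0.036), without bull 1 (-0.044) and without the wide arrays (-0.072, and -0.029 to 0.125 without 1 array), GAPDH without bull 1 (0.0065, and -0.031 to 0.019 without 1 array), LDHB without bull 2 (-0.0041), the second PFKM probe set without bull 3 (0.044) and TPI1 without the wide arrays (-0.053). TPI1 stood at 0.12 log2 over all arrays, so its direction depended on these 4 arrays. The cause was not tested. The sample numbers did not pair the groups (45 pairs with r from -0.229 to 0.164). With the number as a replicate block the same 4 members were called (PFKM 0.01, PGK1 0.00687 and LDHA 0.0439 as limma adjusted p). The omission of the wide arrays, the index as covariate and the within-array tests were chosen after seeing the data. Array number, 3 per group, limits precision.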
